A study of Homo sapiens with 30 samples.

Results

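Constitutive open sites bearing H3K27me3 are stretches of chromatin that were open in 3 RWPE1 lines and at the same time overlapped a region marked by trimethylation of lysine 27 of histone H3 in RWPE1-ERG cells. A site was a peak of the RWPE1-ERG ATAC-seq list on chromosomes 1 to 22 or X that overlapped, by at least 1 bp, a peak in both the RWPE1+mAKT and the RWPE1-ERG+mAKT lists and a region of the RWPE1-ERG H3K27me3 list. There were 687 such sites among 62950 ATAC-seq peaks of RWPE1-ERG cells, and 34744 of these peaks were open in all 3 lists. The sites were 1.98% of the constitutively open peaks, and this share was set by the rule. The sites were thus selected on peak calls in the 3 ATAC-seq lists and on H3K27me3 calls in RWPE1-ERG cells, and values of those lists are given as descriptions. The 34057 constitutively open peaks with no region in RWPE1-ERG cells are called the other constitutive sites. They are the group with which the 687 sites are compared.

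H3K27me3 is laid down by Polycomb repressive complex 2 (PRC2) and is known for marking silent developmental genes, above all at CpG islands, the CpG-rich stretches found at many gene starts. The mark is usually found in broad domains, while ATAC-seq reads short stretches of DNA that the Tn5 transposase can reach. An open CpG island inside a marked domain is a known arrangement at developmental genes that are silent or barely transcribed, and EZH2, the methyltransferase of PRC2, is a known partner of ERG in prostate cells.

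RWPE1 is an immortalised line of normal prostate epithelial cells, and ERG, a member of the ETS family, is switched on by gene fusions in many prostate cancers. All lines were retrovirally transduced and drug selected, with no clone named. For ATAC-seq and RNA-seq, RWPE1-ERG cells carried pQCXIH-ERG (UniProt isoform 1) with empty pBabe-Puro, mAKT cells carried empty pQCXIH with pBabe-Puro-Myr-AKT (an always active, myristoylated AKT), RWPE1-ERG+mAKT cells carried both genes, and vector cells carried both empty vectors. For H3K27me3 and ERK2 ChIP-seq the lines carried a pQCXIH construct alone: empty vector, ERG, or ERG S96E, in which the serine that ERK phosphorylates is replaced by glutamate. H3K27me3 and openness were therefore never read in the same cells, and each ATAC-seq or ChIP-seq list comes from 1 library, so no difference between lines has a replicate error. DNA from 3 ChIP experiments was pooled for each library, and the RNA values are the authors' means over 3 libraries a line, with no spread. The vector ATAC-seq list was not used here, so constitutive means open in 3 of the 4 lines.

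The libraries set how far the calls reach. The H3K27me3 libraries held 19444504 reads in vector, 16513053 in ERG and 26454542 in S96E cells, and the regions covered 242, 138 and 224 Mb of the genome. Most regions were weak: 0.0925%, 0.435% and 2.56% of them had a p-value of at most 0.001, the limit for a strong region, while regions up to a p-value of 0.1 were kept. In the RNA-seq, ERG was at 0.264 and 0.435 FPKM in vector and mAKT cells and at 358 and 328 FPKM in ERG and ERG+mAKT cells. AKT1 was at 58.7 and 64.2 FPKM in vector and ERG cells and at 156 and 281 FPKM in mAKT and ERG+mAKT cells. Of the basal epithelial markers, 6 of 6 were above 1 FPKM in every line, in a range from 21.3 (TP63) to 3642 FPKM (KRT5). Of the luminal markers 4 of 7 were, with KRT8, KRT18 and KRT19 high and KLK3 listed at 0. Endothelial and leukocyte markers were below 1 FPKM in every line (4 of 4 and 4 of 4), as were 5 of 6 fibroblast markers, with COL1A1 between 1.78 and 2.18 FPKM.

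Sequences of 5 sites show the kinds of DNA found among the 687. Each is the central 300 bp of the site on the forward strand of GRCh37, with CpG dinucleotides in capitals. The first 3 are the sites with the strongest H3K27me3 regions whose central window holds no annotated UTR. They lie at the start of the long noncoding RNA LINC01749 (its first exon lies in the window), 568 bp upstream of PRDM12, and 36 bp upstream of BARHL1, both genes of neural transcription factors.
LINC01749 site, chr20:61640462-61640761: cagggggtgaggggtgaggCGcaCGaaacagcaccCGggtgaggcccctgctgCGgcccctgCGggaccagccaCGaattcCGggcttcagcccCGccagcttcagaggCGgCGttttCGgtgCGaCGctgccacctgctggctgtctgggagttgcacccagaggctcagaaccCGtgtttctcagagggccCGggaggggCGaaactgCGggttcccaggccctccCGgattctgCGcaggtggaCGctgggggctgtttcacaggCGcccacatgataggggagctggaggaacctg
PRDM12 site, chr9:133539075-133539374: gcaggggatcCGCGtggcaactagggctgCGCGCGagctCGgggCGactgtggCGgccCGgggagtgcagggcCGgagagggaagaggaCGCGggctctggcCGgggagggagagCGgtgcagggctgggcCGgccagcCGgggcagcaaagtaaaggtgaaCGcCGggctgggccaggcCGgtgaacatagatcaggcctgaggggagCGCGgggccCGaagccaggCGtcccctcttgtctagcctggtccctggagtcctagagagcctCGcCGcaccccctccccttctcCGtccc
BARHL1 site, chr9:135457486-135457785: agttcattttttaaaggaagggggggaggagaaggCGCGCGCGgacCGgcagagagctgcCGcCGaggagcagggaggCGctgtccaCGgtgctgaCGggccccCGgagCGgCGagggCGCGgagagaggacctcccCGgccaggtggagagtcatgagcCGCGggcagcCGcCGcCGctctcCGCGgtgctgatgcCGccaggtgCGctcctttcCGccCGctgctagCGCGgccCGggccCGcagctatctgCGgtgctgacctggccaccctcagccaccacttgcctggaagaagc
The others stand for other kinds of site: an intron of PARN, the gene of a poly(A) nuclease, shown for the strongest region inside a nearest gene at 10 FPKM or more in RWPE1-ERG cells under the same limits, and an intron of ART1, which held no CpG although it lay in regions of all 3 H3K27me3 lists.
PARN site, chr16:14580637-14580936: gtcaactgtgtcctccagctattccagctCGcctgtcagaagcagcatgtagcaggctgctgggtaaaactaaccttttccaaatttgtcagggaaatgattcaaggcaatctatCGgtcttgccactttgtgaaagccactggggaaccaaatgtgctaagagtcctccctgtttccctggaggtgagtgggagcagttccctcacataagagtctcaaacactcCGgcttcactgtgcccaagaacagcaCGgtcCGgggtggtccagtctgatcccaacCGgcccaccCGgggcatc
ART1 site, chr11:3675382-3675681: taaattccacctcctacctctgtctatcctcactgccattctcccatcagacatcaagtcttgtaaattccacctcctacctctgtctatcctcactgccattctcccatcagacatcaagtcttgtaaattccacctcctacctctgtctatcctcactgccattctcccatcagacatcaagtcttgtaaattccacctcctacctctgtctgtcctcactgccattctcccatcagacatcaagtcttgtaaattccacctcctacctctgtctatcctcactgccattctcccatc
The first 3 windows held 21, 26 and 32 CpG. The PARN window held 7. The ART1 window was a tandem repeat in which 99.4% of the letters recurred at a shift of 126 bases.

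The nearest genes of the strongest regions gave little RNA. The LINC01749 site (chr20:61640231-61640992) had the highest fold enrichment of H3K27me3 over input in RWPE1-ERG cells, 4.66, with 5.46 in S96E and 2.33 in vector cells. The PRDM12 site (chr9:133539036-133539413) had 4.64 in ERG, 10.6 in S96E and 3.15 in vector cells, the highest S96E value of the 687. The BARHL1 site (chr9:135457313-135457957) had 4.51 in ERG and 10.0 in S96E cells and no region in vector cells. LHX9, a LIM homeobox gene, had a site inside it (chr1:197885091-197885621) at 4.51, 8.22 and 2.65 in ERG, S96E and vector cells. SLC32A1, the gene of a vesicular GABA transporter, had a site 819 bp away (chr20:37358834-37360359) at 4.51, 8.61 and 2.99. HAND1, a heart and placenta transcription factor gene, had one over its start (chr5:153857191-153857951) at 4.17, 7.20 and 2.98. RNA of the nearest genes of these 6 sites was at or below 0.143 FPKM in RWPE1-ERG cells, the highest being PRDM12. For the LINC01749 site this gene was LINC00029, listed at 0 FPKM, with 3 genes equally near. The RNA level of LINC01749 itself is not given.

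The rest of the 10 strongest were a pair of sites in the pseudogene ESPNP (4.10 and 4.01 in ERG, 7.89 in S96E cells for both), a site in LOC101927740 (4.07 and 6.48) and a site in SLC12A5, a neuronal chloride transporter gene (4.02 and 4.74). By bases covered in RWPE1-ERG cells, the leading site was 15567 bp from SALL3 (chr18:76774536-76777020), with 2485 bp and thus the whole peak covered. It is among the tandem repeats described below. It was followed by a site inside DPYSL3 (2293 bp), whose RNA was at 10.6 FPKM in RWPE1-ERG cells, by one inside MPP2 (1854 bp, 1.91 FPKM) and by one inside TCHH (1853 bp, 0.150 FPKM). The other sites named for the bases covered were nearest to SLC32A1, DBET, MIR3194, ZFP64, F2RL2 and TMEM178B. In S96E cells the 5 highest values were those of PRDM12 and BARHL1, then LMX1B (9.78), TLX3 (9.31) and TCHH (8.63). In vector cells the order was another. The site near FAM27C (chr9:44992386-44994166) had 6.62 in vector, 2.22 in ERG and 1.54 in S96E cells, and the PARN site (chr16:14580498-14581074) had 4.26, 3.86 and 1.82. After these came CYP24A1 (3.84), a site 152744 bp from SPOCK3 (3.28), also a tandem repeat, and PRDM12. The FAM27C, PRDM12 and DBET sites lay within 1 Mb of an assembly gap of at least 100 kb.

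The regions in RWPE1-ERG cells met the open sites mostly at their edges. The fold enrichment of the regions, which chose the sites, ran from 1.64 to 4.66 with a median of 2.32, and the median length of the regions was 1148 bp against 724 bp for the open sites. The regions covered a median of 28.8% of a site: 100 sites were covered whole, 199 (29.0%) over at least 50% of their bases, and 470 (68.4%) at 1 end only. The centre base was covered in 213 sites (31.0%), and 44 were covered at both ends and not at the centre. At the limit of the rule, 17 sites were covered by 10 bp or less, and the smallest overlap was 2 bp, as at MSX2. Just outside it, 163 of the other constitutive sites had a region within 100 bp and 2 were next to one with no base between. In all, 748 regions met the 687 sites, and 2 of them met 2 sites each. Of the 687, 99 had a region at a p-value of at most 0.001, and 10 passed a q-value limit of 0.01.

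The sites were also lower than the rest in the fold enrichment of the ATAC-seq peak. Its median was 5.49 in ERG, 4.62 in mAKT and 4.23 in ERG+mAKT cells, against 7.58, 6.15 and 5.87 at the other constitutive sites. The rule used whether a peak was called and not its height, but peaks near the limit of calling are the ones most easily lost from a list, and depth is unknown for 2 of the 3 ATAC-seq libraries. The ranks of the peak heights agreed between lines over the 687 sites, with a Spearman correlation of 0.79 between ERG and mAKT cells and 0.64 between ERG and ERG+mAKT cells, which share their position and sequence.

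Cover in the other 2 H3K27me3 lists was not used by the rule. In S96E cells 610 of the 687 sites overlapped a region (88.8%, exact binomial 95% interval 86.2 to 91.1%), against 5.88% of all constitutive sites and 4.20% (3.99 to 4.42%) of the other constitutive sites. In vector cells 381 did (55.5%, 51.7 to 59.2%), against 6.07% of all and 5.07% (4.84 to 5.31%) of the others. These intervals cover counting over sites only. They say nothing of the spread between libraries, and sites of 1 domain are not independent. There were 357 sites (52.0%) with a region in both lists, 253 (36.8%) with one in S96E cells alone, 24 (3.49%) with one in vector cells alone and 53 (7.71%) with neither. The S96E regions at the sites were longer, with a median of 6301 bp against 919 bp in vector cells, and stronger, with a median fold enrichment of 3.94 against 2.08. The S96E library was deeper, and its reads were 74 bp long, against 84 bp in vector and ERG cells. Its input held 19065760 reads, against 15679418 in vector and 9675359 in ERG cells. Whether the longer and stronger regions come from the cells or from these traits of the libraries was not tested.

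The order of the lists depends on where the sites are chosen. Of the 2109 constitutive sites with a region in vector cells, 18.1% had one in ERG and 32.1% in S96E cells. Of the 2042 with one in S96E cells, 29.9% had one in ERG and 33.2% in vector cells. Thus the 357 sites in all 3 lists were 52.0% of the sites chosen in ERG cells, the shortest list by bases covered.

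The cover around the sites differed in shape between lists. At the centre of the sites 31.0% were covered in ERG, 21.8% in vector and 75.0% in S96E cells. At 1 kb to the left the shares were 55.2%, 43.2% and 78.5%, and at 1 kb to the right 52.1%, 39.3% and 76.7%. At 10 kb they were still 21.3% and 21.8% in ERG, 22.1% and 26.2% in vector and 34.1% and 34.6% in S96E cells. The ERG and vector shares were thus lower at the open site than beside it, by more than the S96E share was. The ERG list chose the sites, by an overlap anywhere in the peak, so its shares are shaped by the rule and are descriptions. The S96E regions at the sites were also longer, with a median of 6301 bp against 1148 bp in ERG and 919 bp in vector cells. With 1 kb added to either side of each site, 89.5% of the 687 met a vector region, against 19.2% of the others.

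**Figure D1:**
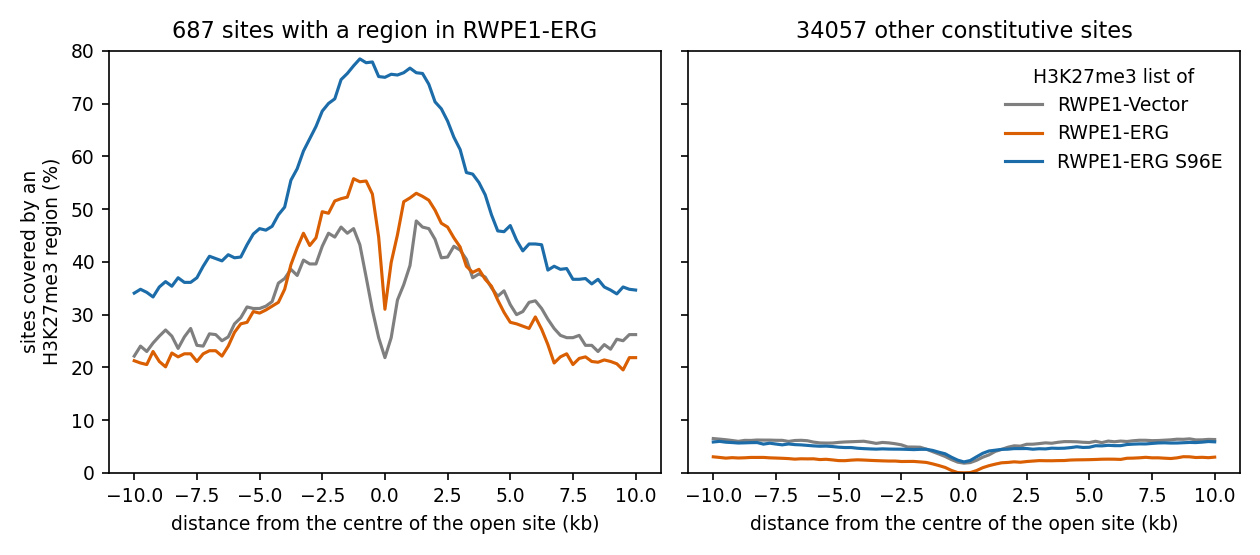
Share of sites (vertical axis, in percent) whose base at a given distance from the centre of the open site (horizontal axis, in kb) lay in an H3K27me3 region of the ERG, vector or S96E list, for the 687 sites on the left and the 34057 other constitutive sites on the right. On the left the ERG and vector lines dip to 31.0% and 21.8% at the centre, where the S96E line stands at 75.0%, and on the right every line is at or below 6.49%. The ERG list was used to choose both groups, so the ERG lines are shaped by the rule.

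Cover in S96E and vector cells went with different features of the sites. In S96E cells 96.8% of the 376 sites within 1 kb of a gene start and 79.1% of the 311 sites farther away had a region, and 94.5% of the 491 CpG-island-like sites and 74.5% of the 196 others did. In vector cells the shares were 55.9% and 55.0% by gene starts and 53.8% and 59.7% by CpG islands, and the intervals of the classes overlapped. Among the other constitutive sites S96E cover was 6.18% near starts and 3.13% away from them, and vector cover 3.00% and 6.20%. With the sites in 4 equal groups by ERG fold enrichment, from lowest to highest, S96E cover was 68.0%, 90.1%, 98.2% and 98.8%, and vector cover 43.0%, 50.0%, 63.2% and 65.7%. Over the sites covered in both lists of a pair, the Spearman correlation of fold enrichment with that in ERG cells was 0.65 in S96E (610 sites) and 0.38 in vector cells (381 sites). Where the centre base was covered in ERG cells, 93.4% had a region in S96E and 76.5% in vector cells, against 86.7% and 46.0% where it was not.

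**Figure D2:**
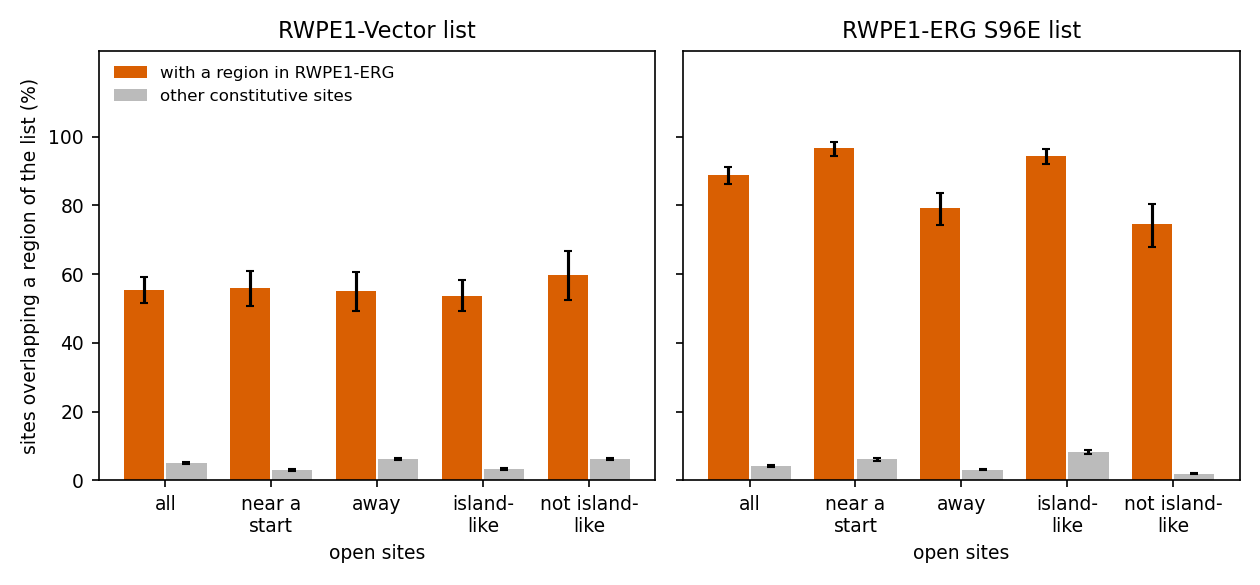
Share of open sites (vertical axis, in percent) that overlapped an H3K27me3 region of the vector list (left) and the S96E list (right), for the 687 sites in orange and the other constitutive sites in grey, over all sites, sites within 1 kb of a gene start, sites farther away, and CpG-island-like sites or not. Error bars are exact 95% binomial intervals over sites. The orange S96E bars stand at 96.8% near starts and 79.1% away, and the orange vector bars at 55.9% and 55.0%.

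The comparison with open sites of fewer lines gives the same order. The 1396 other RWPE1-ERG peaks with a region, which were not open in all 3 lists, had a region in 76.9% of cases in S96E and 53.6% in vector cells. They were poorer in gene starts (23.3% within 1 kb) and in CpG-island-like sequence (27.1%).

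The 687 sites were rich in CpG, which the rule did not use. They held a median of 7.53 CpG per 100 bp, with the lower and upper quartile at 4.90 and 9.40, against a median of 2.38 at the other constitutive sites. CpG-island-like sites, those of at least 200 bp with at least 50% G and C and an observed to expected CpG ratio of at least 0.6, were 71.5% (491 sites) of the 687 and 36.0% of the others. Near gene starts, where most open sites are islands, the shares were 89.4% and 80.2%. The gap was widest away from gene starts, where 49.8% of the 311 sites and 12.0% of the 22056 others were island-like, with medians of 5.24 and 1.35 CpG per 100 bp. The correlation of CpG density with fold enrichment in ERG cells was 0.36 (Spearman, 687 sites).

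**Figure D3:**
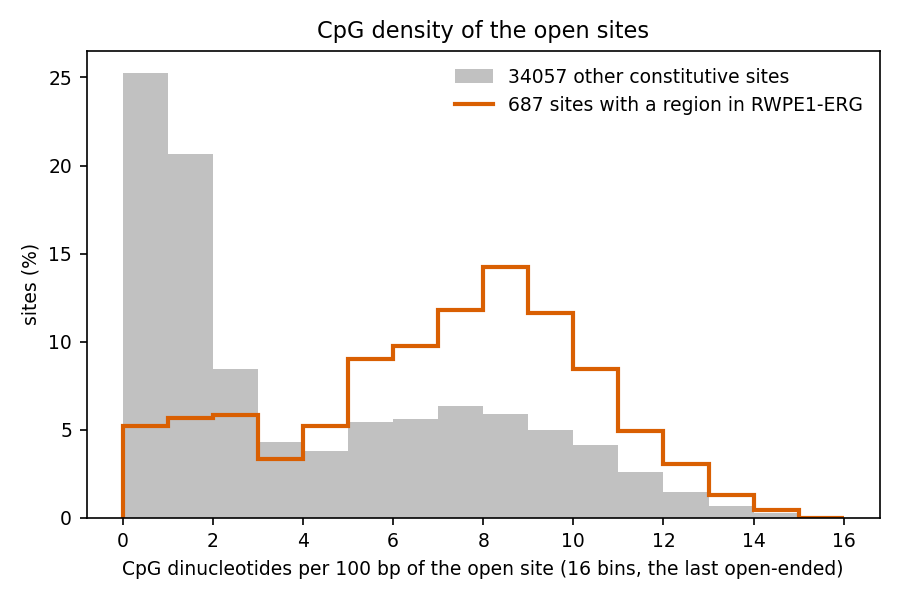
Share of sites (vertical axis, in percent) by CpG dinucleotides per 100 bp of the open site (horizontal axis, bins of 1) for the 687 sites, as an orange line, and the 34057 other constitutive sites, in grey. The grey sites pile up below 2 per 100 bp, and the orange line is highest between 8 and 9.

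Letters of known binding motifs were counted on both strands in the central 300 bp. TGACTCA or TGAGTCA, the AP-1 site, was present in 47 of the 687 windows (6.84%, 5.07 to 8.99%), against 20.8% of all constitutive sites and 21.1% of the other ones. Away from gene starts it was in 11.3% and 29.5% of windows, and near starts in 3.19% (1.66 to 5.51%) and 5.67% (5.27 to 6.10%), where the intervals overlap. AGGAAGTG or CGGAAGTG, an ETS site of the kind ERG binds, was in 15 windows (2.18%, 1.23 to 3.58%), against 5.68% of all and 5.75% of the other sites. The ETS letters were in 1.29% and 4.72% of windows away from starts and in 2.93% and 7.64% near them. GGGCGG, the core of an SP1 site, was in 51.4% against 33.9% of all, with 65.2% and 65.0% near starts and 34.7% and 16.4% away from them. CACGTG, an E-box, was in 4.66% against 6.06% of all. A match is only a match of letters. The 687 sites were richer in the CpG-bearing GGGCGG away from starts and poorer in AP-1 letters away from them and in ETS letters in both positions.

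Peaks of ERG and ERK2 were read at the same sites. In RWPE1-ERG+mAKT cells, the only line whose ERG peaks were used here, 9 of the 687 sites overlapped an ERG peak (1.31%, 0.601 to 2.47%), against 4.23% of all constitutive sites. They were nearest to C2orf70, PRDM6, IRF4, FAM27C, FAM27E2, PALD1, MIR6125, LOC100507534 and STMN3. The gap in ERG peaks was not seen among CpG-island-like sites, with 1.22% of the 687 sites' 491 and 1.14% of the other constitutive sites. Among sites that were not island-like the shares were 1.53% and 6.05%. Near gene starts they were 1.06% and 2.27%, with intervals that overlapped. In RWPE1-ERG cells 17 of the 687 sites (2.47%, 1.45 to 3.93%) overlapped an ERK2 peak, against 5.72% of all constitutive sites. In vector cells 19 (2.77%) did, against 8.17%. Of the 17 ERK2 sites, 3 lay in the 5S ribosomal RNA array and 2 in the interval with FCGR2A as nearest gene described below, and the others were nearest to CDK18, CARF, SPOCK3, DBET, LOC100507642, REXO1L2P, CCDC183, EXD3, PARN, NPIPB5, PREX1 and ABHD16B. With 1 kb added to either side, 2.62% of the 687 sites met an ERG peak, against 5.19% of all constitutive sites, and 4.22% met an ERK2 peak of RWPE1-ERG cells, against 8.08%. With the 33000 ATAC-seq peaks of lowest p-value in each list, 5.35% of the 187 sites left met such an ERK2 peak (2.59 to 9.61%), against 7.33% (6.99 to 7.68%) of all constitutive sites, so that the intervals overlapped.

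Gene starts were common at the sites: 376 (54.7%, 50.9 to 58.5%) had one within 1 kb, against 35.2% of the other constitutive sites. The kinds of gene were alike in both groups, with protein-coding starts at 69.4% and 70.6% and lncRNA starts at 19.4% and 22.7% of those sites. Pseudogenes were at 5.85% and 3.39% and small RNA genes at 5.32% and 3.28%. The share of constitutive sites that bore the mark varied between chromosomes, from 3.94% (43 sites) on chromosome 20, 3.83% (69) on chromosome 9 and 3.26% (67) on chromosome 5 to 0.509% (8) on chromosome 19, 0.262% (2) on chromosome 22 and 0.240% (2) on chromosome X. The regions of RWPE1-ERG cells covered 10.1% of chromosome 20, 5.74% of chromosome 9, 6.52% of chromosome 5, 3.76% of chromosome 19, 0.846% of chromosome 22 and 0.574% of chromosome X.

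Some sites lay in arrays of near-identical genes, where reads of 1 copy cannot be assigned with certainty and counts are uncertain. The densest stretch held 10 sites on chromosome 1 between 228693510 and 228782280. Of these, 9 lay within 1 kb of a start in the 5S ribosomal RNA array, 9 of them with a region in S96E and 6 in vector cells, and the other was nearest to BTNL10, with a region in both lists. The next by number of sites was not such an array. It held 7 sites on chromosome 20 between 62129494 and 62959347, with SOX18, STMN3 and EEF1A2 among the nearest genes. A further 5 sites lay between 161410015 and 161440969 on chromosome 1, and all 5 had a region in both lists. Their nearest gene by locus was FCGR2A, at least 34236 bp away, and annotated starts of unnamed genes could lie nearer. A pair of sites lay within 1 kb of a start of a DUX4L gene, with regions in both lists. Sites within 1 Mb of an assembly gap of at least 100 kb were 43 (6.26%), against 4.75% of the others.

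Tandem repeats, defined after the ART1 window was seen, were another group. A window counted as one where at least 80% of its letters recurred at a single shift between 5 and 150 bases. There were 29 among the 687 sites (4.22%, 2.84 to 6.01%) and 171 among the others (0.502%, 0.430 to 0.583%). None of the 29 lay within 1 kb of a gene start, 5 were CpG-island-like, 24 had a region in S96E and 23 in vector cells, against 381 of the 687 in vector cells. They were near MUC5AC, IRF4, NKX1-1, VIPR2 and SALL3, among others, and the ATAC-seq fold enrichment had a median of 4.29 in them and of 5.57 in the rest. Whether reads of other copies add to the calls there was not tested. Without them, S96E and vector cover of the remaining 658 sites were 89.1% and 54.4%.

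The nearest genes were mostly silent. The 687 sites had 630 distinct nearest genes by the locus given in the RNA table, with 454 sites (66.1%) inside the locus. At 204 sites several genes were equally near and the shorter was taken, so a named nearest gene need not be the one the site acts on. Below 1 FPKM in RWPE1-ERG cells were 501 of the 630 (79.5%, 76.2 to 82.6%), against 39.2% (38.4 to 40.0%) of the 14715 nearest genes of the other constitutive sites and 53.8% of all 25835 genes of the table. In bulk RNA, fewer cells with a transcript and less RNA per cell cannot be told apart. The median was 0.0411 FPKM, against 3.34 for the other sites' genes and 0.504 for all genes. It was of the same size in vector (0.0449), mAKT (0.0463) and ERG+mAKT cells (0.0444), and 475 genes (75.4%) were below 1 FPKM in every line, against 36.7% for the other sites' genes.

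For protein-coding genes with a start within 1 kb of an open site the gap was wider. Of 273 such genes at the 687 sites 83.9% (79.0 to 88.0%) were below 1 FPKM in RWPE1-ERG cells, against 14.0% (13.3 to 14.7%) of 8917 genes whose start was near other constitutive sites only. Their medians were 0.0511 and 9.33 FPKM. Over all 687 sites, the share whose nearest gene by locus was below 1 FPKM went up with the fold enrichment of the region in RWPE1-ERG cells. This share of sites was 73.8%, 75.6%, 79.5% and 87.2% over the same 4 groups, from lowest to highest, with a gene counted once for each of its sites. Only 38 of the 630 genes (6.03%) were at 10 FPKM or more, against 32.9% for the other sites' genes. Among these, picked out after the values were seen, were GNAS, an imprinted gene of a G protein subunit (907 FPKM, region at 2.71, with 3 genes equally near), and PPIB, the gene of cyclophilin B (401 FPKM, region at 2.49, with 2).

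**Figure D4:**
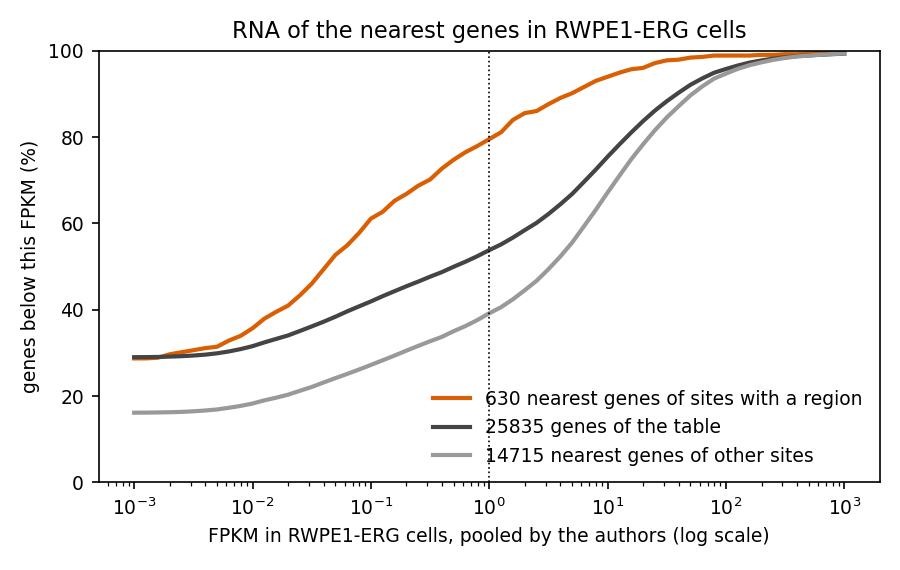
Share of genes (vertical axis, in percent) below a given FPKM in RWPE1-ERG cells (horizontal axis, log scale) for the 630 nearest genes of the 687 sites, the 14715 nearest genes of the other constitutive sites and the 25835 genes of the table. At the dotted line of 1 FPKM the curves stand at 79.5%, 39.2% and 53.8%.

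Developmental transcription factors were the largest listed group among the nearest genes. Of 141 such genes in the table (HOX genes aside) 23 (16.3%) were nearest to 1 of the 687 sites, against 2.44% of all genes, and 21 of the 23 were below 1 FPKM in every line, as were 101 of all 141. They were ATOH1, BARHL1, DLX5, EN1, FOXC2, FOXL2, HAND1, HAND2, HLX, LHX5, LHX9, MSX2, NEUROG2, NKX2-3, NKX2-5, NKX6-1, PAX7, POU3F2, PRRX1, SIM2, SOX18, SOX21 and TLX3. Long genes and gene deserts draw more sites, which this share does not correct for. Of their 24 sites 23 were CpG-island-like, 23 had a region in S96E and 15 in vector cells. The median fold enrichment was 3.19 in ERG, 6.70 in S96E and 2.37 in vector cells, each above the median of the 687 sites (2.32, 3.94 and 2.08).

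HAND1, for instance, was at 0.00453 FPKM in vector and 0.00727 in ERG cells and listed at 0 in mAKT and ERG+mAKT cells. TLX3, a homeobox gene of sensory neurons, was at 0.122, 0.0946, 0.161 and 0.0284 FPKM in vector, ERG, mAKT and ERG+mAKT cells. SOX21 was listed at 0 in every line but mAKT (0.00350 FPKM). The exceptions were SIM2, a basic helix-loop-helix gene, and MSX2, a homeobox gene. SIM2 had 3.28, 1.24, 1.93 and 1.84 FPKM in vector, ERG, mAKT and ERG+mAKT cells, with its site (chr21:38070704-38071873) at 2.54 in ERG and 5.48 in S96E cells. MSX2 had 3.60, 2.92, 4.13 and 2.97 FPKM, and its site (chr5:174151237-174152183) was the only 1 of the 24 without a region in S96E cells, with an overlap in ERG cells of 2 bp.

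**Figure D5:**
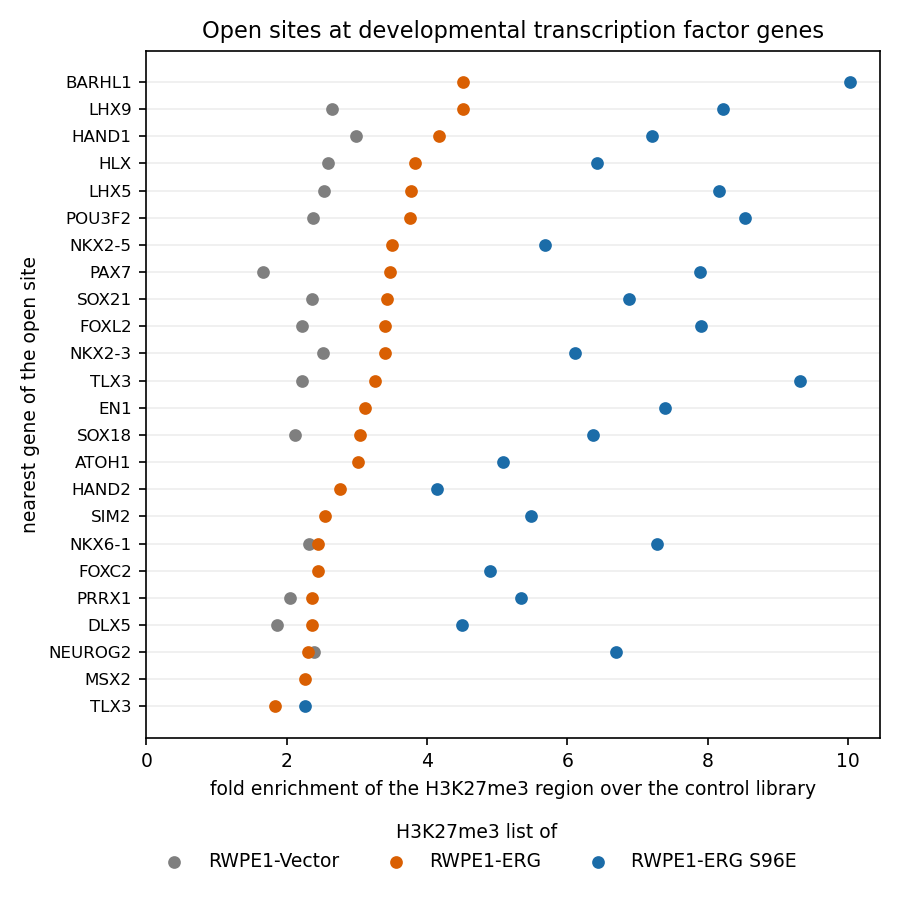
Fold enrichment of H3K27me3 over input (horizontal axis) at the 24 sites whose nearest gene is a listed developmental transcription factor (vertical axis, 1 row a site), in vector (grey), RWPE1-ERG (orange) and RWPE1-ERG S96E cells (blue). A missing point means that the list held no region there. At 23 of 24 sites a blue point stands to the right of the orange one, and vector points are present at 15.

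Signalling genes of development were a second group. Of 72 WNT, FGF, BMP and Hedgehog ligands and antagonists 11 (15.3%, against 2.44% of all genes) were nearest to a site: BMP4, BMP7, BMP8A, BMP8B, DHH, FGF12, FGF18, HHIP, WIF1, WNT6 and WNT8B. All 11 sites had a region in S96E and 7 in vector cells, and 10 of the 11 genes were below 1 FPKM in every line, as were 52 of all 72. BMP7, a bone morphogenetic protein, had the strongest of these regions in ERG cells (3.58, chr20:55840471-55841840) at 0.145, 0.0657, 0.542 and 0.234 FPKM in vector, ERG, mAKT and ERG+mAKT cells. HHIP, which binds and holds back Hedgehog ligands, was the exception at 1.02 FPKM in vector cells, with 0.611 and 0.163 FPKM in ERG and mAKT cells, and was listed at 0 in ERG+mAKT cells.

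The other lists had 3 genes or fewer nearest to a site, against the 2.44% of all genes. Of 45 HOX and ParaHOX genes 3 were (6.67%), namely GSX1, HOXB9 and PDX1, and the site near HOXB9 was covered whole (3.30 in ERG, 6.82 in S96E and 1.80 in vector cells). Of 27 Polycomb subunits and H3K27 demethylases 2 were (7.41%): CBX2 and CBX8, neighbouring genes of PRC1 subunits. The CBX2 site was at 3.58, 6.48 and 2.69 and the CBX8 site at 2.44, 7.38 and 2.02 in ERG, S96E and vector cells. They lay outside these genes, 2347 bp from CBX2 and 14342 bp from CBX8. CBX2 was at 3.22 and CBX8 at 5.01 FPKM in ERG cells. Of 29 mesenchymal genes 3 were nearest to a site (10.3%), CDH11, COL6A1 and SNAI1. CDH11, a mesenchymal cadherin gene, had 3.51, 1.44, 0.757 and 0.401 FPKM in vector, ERG, mAKT and ERG+mAKT cells and a site at 2.17, 6.49 and 1.84 in ERG, S96E and vector cells. SNAI1, a repressor of epithelial genes, had 0.591, 0.756, 0.914 and 1.77 FPKM. Of 18 prostate luminal genes 1 was (5.56%), TMPRSS2, the androgen-driven gene whose promoter is joined to ERG in prostate cancer. Its site (chr21:42878826-42880263) lay inside the gene, 22780 bp from the outermost start in the annotation. Other starts within the gene were not counted. The site was at 2.88, 4.76 and 1.96, and TMPRSS2 RNA was at or below 0.0536 FPKM in every line. Of 18 basal epithelial genes 0 were, and of 53 clustered protocadherins 1 was (1.89%), PCDHGA1, with a pair of sites. The locus of PCDHGA1 spans other genes, and these sites lay over the starts of PCDHGB4 and PCDHGB5, which were at 2.28 and 3.31 FPKM in ERG cells, with PCDHGA1 at 0.0866.

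Differences of the nearest genes between lines were not tested here, since the values used are 1 pooled value a line without a spread. The ratio of FPKM + 1 was taken for genes at 1 FPKM or more in either line, on the log2 scale, which understates changes of low genes. For RWPE1-ERG over vector 146 of the 630 genes were left, with a median of -0.12, against -0.02 for the nearest genes of the other constitutive sites and -0.01 for all genes. More than 2-fold higher were 3 genes (2.05%, against 3.62% of all genes), and more than 2-fold lower were 4 (2.74%, against 0.989%). A gene can pass the FPKM limit through the line where it is high, so these counts are descriptions.

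The 4 lower genes had sites with a region in S96E cells. VCAN, the gene of the matrix proteoglycan versican, had 7.17 FPKM in vector, 2.01 in ERG, 0.915 in mAKT and 0.273 in ERG+mAKT cells, so that vector cells were highest. ITM2C, a membrane protein gene, had 18.7, 6.80, 18.6 and 11.0 FPKM in the same order, lower in both ERG lines. MCTP1 had 2.09, 0.252, 2.24 and 0.441 FPKM, also lower in both ERG lines. GJA1, the gene of connexin 43, had 19.4, 8.31, 24.2 and 16.8 FPKM, lowest in ERG cells. The log2 ratios for ERG over vector were -1.44 for VCAN, -1.34 for ITM2C, -1.30 for MCTP1 and -1.13 for GJA1, and only the GJA1 site had a region in vector cells. CYP26B1, which breaks down retinoic acid (-0.97), SIM2 (-0.94), HTR7 (-0.93) and FZD1, a WNT receptor gene (-0.89), came next.

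The 3 higher genes were HS3ST2, MIR663A and CDK18. HS3ST2, a heparan sulphate sulphotransferase gene, had 0.651 FPKM in vector, 4.60 in ERG, 0.0593 in mAKT and 0.0915 in ERG+mAKT cells, so that ERG cells stood alone. Its site (chr16:22824627-22825942) lay in regions of all 3 lists (2.07 in ERG, 3.64 in S96E and 2.62 in vector cells). CYP24A1, the enzyme that breaks down vitamin D, had the same order at lower levels, with 0.524, 1.92, 0.139 and 0.159 FPKM. CDK18 had 6.35, 15.4, 6.23 and 7.91 FPKM and a site 22523 bp away. MIR663A was listed at 2238, 7581, 1235 and 3389 FPKM. It is a very short gene, for which FPKM is unreliable. EDIL3 (0.94), BEND7 (0.82), EEF1A2 (0.76) and C2orf70 (0.75) followed CYP24A1 (0.94) in log2 ratio.

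For RWPE1-ERG+mAKT over RWPE1-ERG, which shares its RWPE1-ERG values with the comparison above, 143 genes were left with a median of -0.04, against -0.05 for all genes. More than 2-fold higher were 3 (2.10%, against 2.06% of all genes) and more than 2-fold lower were 6 (4.20%, against 2.51%). The lower genes were HS3ST2 (-2.36), EPDR1 (-2.27), CYP24A1 (-1.33), VCAN (-1.24), MIR663A (-1.16) and STMN3 (-1.14). EPDR1 had 4.38, 7.32, 2.75 and 0.719 FPKM in vector, ERG, mAKT and ERG+mAKT cells, and STMN3, a stathmin family gene, had 12.2, 12.8, 9.59 and 5.29. The higher genes included HAP1 (1.09) and LOC101928794 (1.01), and GJA1 (0.94) and LINC00200 (0.91) came next. HAP1 had 0.906, 0.550, 1.09 and 2.30 FPKM in vector, ERG, mAKT and ERG+mAKT cells, highest in ERG+mAKT cells. For mAKT over vector and ERG+mAKT over mAKT, 1 and 2 nearest genes were more than 2-fold higher (0.719% and 1.47%, against 1.16% and 2.08% of all genes) and 2 and 3 were more than 2-fold lower (1.44% and 2.21%, against 0.841% and 0.876%).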

How the data were processed

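Peak lists of ATAC-seq, H3K27me3, ERG and ERK2 ChIP-seq and a table of RNA levels, all from RWPE1 lines, were used as the authors deposited them. Reads had been mapped by the authors to hg19 (Bowtie2), cleared of duplicates, and turned into peaks by MACS2 (2.2.7.1 for H3K27me3). Peaks were called against the input of the line for ChIP-seq and without a control for ATAC-seq. The paper names the removal of blacklisted regions for ChIP-seq and not for ATAC-seq. Each deposited peak has a fold enrichment (a ratio), a p-value and a q-value, both as −log10, and a pileup signal, of which the pileup was not used here. RNA values are FPKM from the authors' Cuffdiff run, 1 value a line pooled over 3 libraries. The table also holds the authors' fold changes and p-values between lines, which were not used, and 0 other columns of single samples.

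Peaks on chromosomes 1 to 22 and X were intersected (at least 1 bp). hg19 and GRCh37 share coordinates, and 0 peaks ran past a chromosome end. Gene starts are those of GENCODE release 44 mapped to GRCh37. Only the outermost start of each gene was used, so a site at an inner start could count as away from gene starts. The nearest gene was the one whose locus in the RNA table lay nearest, the shorter where several did. 2 genes with repeated entries were left out. Ratios used FPKM + 1 and genes at 1 FPKM or more in either line. Shares have exact (Clopper-Pearson) 95% intervals. Overlap, distance and interval code was tested on simulated data. The tools were samtools 1.23.1, pysam 0.24.0, scipy 1.17.1, pandas 2.3.3, numpy 2.4.6, matplotlib 3.10.9 and Python 3.11.15.

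Named sites are the 10 with the highest fold enrichment and the 10 with the most bases covered in RWPE1-ERG cells, and the 5 highest in S96E and in vector cells. Named genes are their nearest genes, listed genes nearest to a site, and the 8 (ERG over vector) or 5 (ERG+mAKT over ERG) largest ratios in each direction, with other genes named as examples after their values were seen. The sites and gene lists were chosen with earlier results of these data known. No test between lines was run, since ATAC-seq and ChIP-seq have 1 library a line and the RNA values used are pooled over the libraries, with the p-values of the authors left aside. The lists deposited with a VCaP input and a treated VCaP sample name other samples than those labels and were not used. Depth of the ATAC-seq libraries is given for RWPE1+mAKT alone (35688481 fragments). Alternatives were the overlap required, thresholds on regions and peaks, the gene start window, the pseudocount and filter on FPKM, and the rule for the nearest gene. A marker gene, a named gene and a sequence are not reported here.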

Additional observations from a re-analysis of the deposited data

How the results depend on the processing

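Of 104 values under other settings, 60 moved by less than the interval or within the limit of 1.5 times for counts, 44 moved by more, and 0 turned direction. No paired analysis was possible because each line has 1 library or 1 pooled RNA value, and no replicate could be left out for the same reason. The number of sites was 187 with the 33000 ATAC-seq peaks of lowest p-value in each list, 10 with a q-value limit of 0.01 on the regions and 199 with 50% of the peak covered. Vector cover of the sites was 89.5% with 1 kb added to either side, 43.3% with 33000 peaks, 39.6% with a fold enrichment of at least 2, 20% (of 10 sites) with the q-value limit, 45.2% with 50% covered and 44.5% with the same number of regions from each list. For the other constitutive sites these were 19.2%, 3.86%, 1.06%, 0.00576%, 1.62% and 2.00%. S96E cover was 93.0%, 83.4% and 92.5% with 1 kb added, 33000 peaks and a fold of 2. For the other sites it was 9.57%, 2.51% and 3.60%, and 2.39% with the q-value limit and 2.97% with 50% covered. The share near gene starts was 60.6% with a fold of 2 and 62.3% within 2.5 kb. ERG peaks were at 2.62% with 1 kb added and at 0% of 187 sites with 33000 peaks (exact interval up to 1.95%). They were at 0.291% with the q-value limit on the peaks. ERK2 peaks were at 4.22%, 5.35% and 0.146% in the same order. Of all constitutive sites, 4.9% met an ERG peak with 33000 peaks. With the q-value limit, 0.685% of all constitutive sites met an ERG peak and 0.38% an ERK2 peak. The intervals of the 687 sites there, 0.0353 to 1.05% and 0.00369 to 0.808%, contain these shares. A lower share at the 687 sites was thus not resolved at that limit. Genes below 1 FPKM were 70.8% by the nearest protein-coding start. The median ERG over vector ratio was 0 without the FPKM filter. Its interval over genes included 0 by the nearest protein-coding start (-0.12 to 0.03) and with 33000 peaks (-0.23 to 0.04). It also did for sites inside or within 5 kb of the locus (-0.23 to 0.06). Genes over 2-fold higher and lower in ERG than vector cells were 9 and 18 with a pseudocount of 0.1, and 0 and 0 with 33000 peaks. Without sites near assembly gaps 1 was higher. For ERG+mAKT over ERG they were 10 and 12 with the pseudocount, 6 were higher by the coding start, and 0 were lower with 33000 peaks. Shares of all genes past 2-fold were taken with a pseudocount of 1 only. The counts at 0.1 thus have no such share beside them and are descriptions. CpG density was 8 per 100 bp in the central 300 bp and 8.03 with a fold of 2. The coding-start, assembly-gap and tandem-repeat alternatives were chosen after seeing the data, and without tandem repeats no value moved beyond its interval. The cause of these differences was not tested beyond the smaller number of sites or regions that a stricter limit leaves.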
